A study of Mus musculus with 20 samples.

Results

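Liver stellate cell and extracellular matrix genes were followed in the livers of fasted mice that lack enzymes of fatty acid oxidation. The 37 genes were taken by symbol, whatever their level, from 56748 genes of the deposited count table. All 37 had a row there, and 36 had enough reads to be among the 15669 genes tested. The exception was Timp1, with 0 to 15 reads a library. The 37 genes and the other gene lists were chosen with earlier results of these data known. Their shares set beside all genes are therefore not an independent test. Every group had fasted for 24 h and held 4 liver libraries. The Control group carried floxed alleles of Cpt1a, Cpt1b and Cpt2 and was described as littermates. The liver-specific knockouts lacked Cpt1a and Cpt1b (Cpt1DKO), Cpt2 (Cpt2KO), Cpt1a, Cpt1b and Cpt2 together (TKO), or Cpt2 and Ppara (Cpt2PparaDKO). The Control label names no floxed Ppara allele, and no group lacks Ppara alone. The sources used here name no Cre driver and no ages and do not say whether each library came from its own animal, so the p-values measure the spread between libraries. "Liver-specific" in the labels does not say whether stellate cells themselves lost the alleles.

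Hepatic stellate cells lie between hepatocytes and the sinusoidal endothelium and store vitamin A as retinyl esters made by the enzyme Lrat. When activated in injury they turn into contractile cells that carry smooth muscle actin (Acta2) and secrete collagens. Transforming growth factor beta and platelet-derived growth factor are the best known signals for that change. The secreted matrix consists of fibrillar collagens, sheet-forming and beaded collagens, and small proteoglycans that bind them. Lysyl oxidases crosslink it, matrix metalloproteases cut it, and tissue inhibitors of metalloproteases (Timps) restrain the cutting. Cpt1 and Cpt2 carry long-chain fatty acids into mitochondria, and the nuclear receptor Ppara drives the hepatic fasting programme.

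The libraries held 14129595 to 36452673 counted reads, and Cpt2PparaDKO replicate 1 was the deepest, with the next at 20273303. Levels are given as CPM, the reads of a gene scaled to the library's total with edgeR's trimmed mean method, in the order of replicates 1 to 4. A gene is called where its Benjamini-Hochberg adjusted p over all 15669 genes is under 0.05 in edgeR's quasi-likelihood test. Cpt1a, Cpt2 and Ppara reads were lower where the labels give a deletion. Mean Cpt1a was 155 CPM in Cpt1DKO and 137 CPM in TKO against 1038 CPM in Control. Mean Cpt2 was 249 CPM in Control, 131 CPM in Cpt2KO, 103 CPM in TKO and 33.9 CPM in Cpt2PparaDKO, and mean Ppara was 233 CPM in Control and 73.2 CPM in Cpt2PparaDKO. Cpt1b reads were not lower: the mean was 0.543 CPM in Control, 0.881 CPM in Cpt1DKO and 2.80 CPM in TKO. Which exons were deleted is not stated and reads were counted over whole genes, so the Cpt1b deletion rests on the labels alone. Cpt2KO replicate 3 and Cpt2PparaDKO replicate 4 had a female pattern of Xist and Y-linked reads, and the other 18 libraries a male one. Cpt2KO replicate 3 was the highest of its group for 23 of 36 members and Cpt2PparaDKO replicate 4 for 17 of 36.

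Within Control livers the genes spanned close to 3 orders of magnitude in level per transcript length, as the deposited FPKM (fragment counts scaled by gene length and library total) show. Ecm1, a secreted matrix glycoprotein, came first at 43.3 ± 5.02 FPKM (SD, n = 4), and decorin (Dcn), a collagen-binding proteoglycan, second at 20.9 ± 1.93 FPKM. Biglycan (Bgn), a close relative of decorin, had 9.91 ± 1.67 FPKM and the collagen-binding glycoprotein Sparc 9.82 ± 2.99 FPKM, and those levels did not differ beyond their spread. The membrane protease Mmp14 followed at 7.88 ± 0.511 FPKM. The basement membrane chains Col4a2, at 4.99 ± 1.32 FPKM, and Col4a1, at 4.43 ± 1.45 FPKM, were the highest collagens, and both overlapped Col14a1 at 4.12 ± 0.685 FPKM. The fibrillar chains were lower: Col3a1 had 1.002 ± 0.250, Col1a2 0.660 ± 0.116 and Col1a1 0.449 ± 0.178 FPKM. Timp1 and the lysyl oxidase Lox were the lowest. The stellate markers Lrat (2.34 ± 0.116 FPKM), Reln (1.64 ± 0.208 FPKM), Pdgfrb (1.23 ± 0.236 FPKM) and Des (0.995 ± 0.202 FPKM) were all detected, so genes that mark the cell type are present in this tissue.

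**Figure D1:**
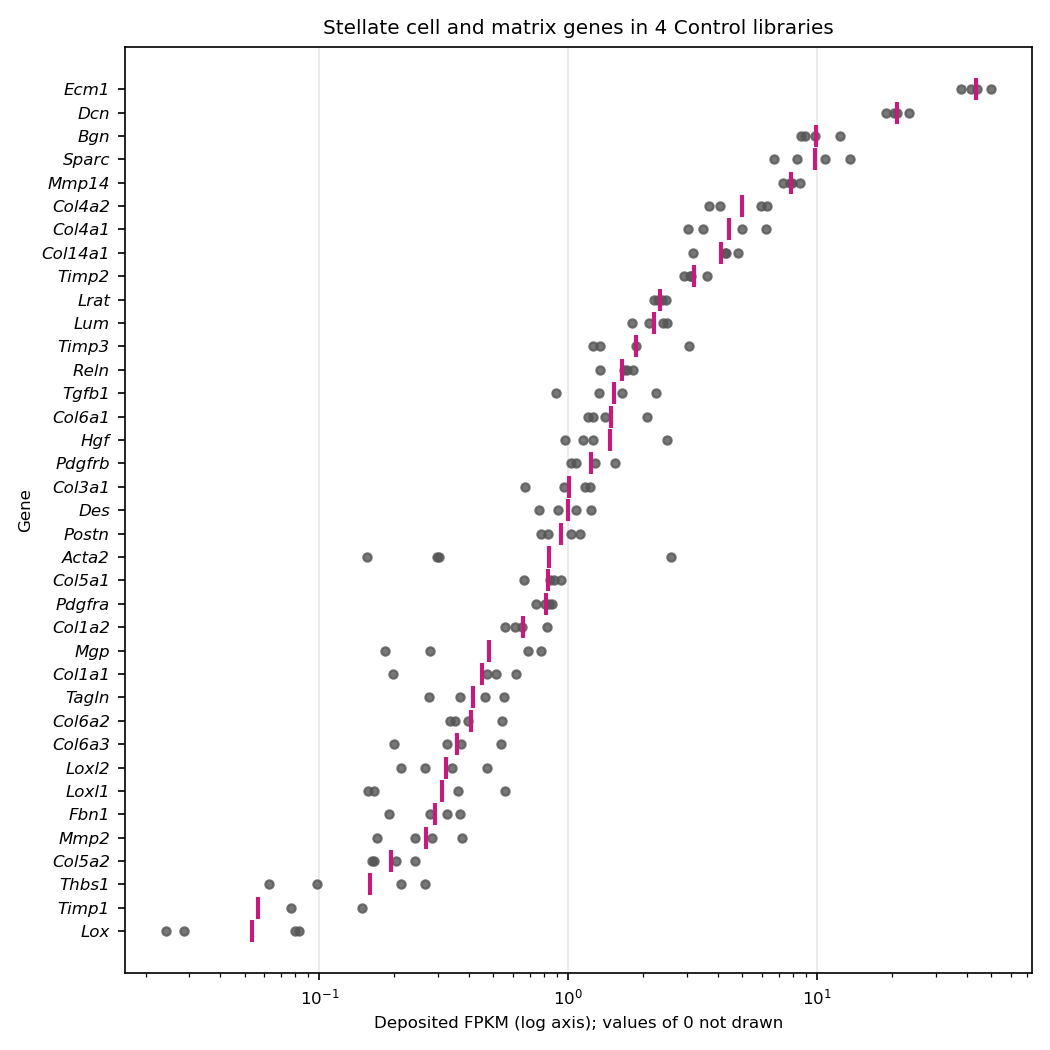
Level per transcript length of each gene in the 4 Control libraries (horizontal log axis, deposited FPKM; points are libraries, bars are means, values of 0 are not drawn). Ecm1 is highest at a mean of 43.3 FPKM, Col1a1 sits at 0.449 FPKM, and Acta2 has 1 library far above the other 3.

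The genes stood higher in Cpt2PparaDKO livers than in Control. Of 36 tested, 15 rose (41.7%) and 1 fell (2.78%), against 14.9% of all genes that rose and 17.6% that fell. Their median log2 fold change was 0.45 beside 0.00019 over all genes, and 35 of 36 estimates were positive. Against Cpt2KO, which shares the Cpt2 deletion, 9 rose (25%) and 1 fell in Cpt2PparaDKO, beside a background of 12.1% higher and 12.2% lower. In that comparison the median was 0.36 for the genes and 0.01 for all genes. Both comparisons contain the same Cpt2PparaDKO libraries. The rises of Col1a1, Col5a2, Bgn, Tgfb1, Sparc, Lrat, Hgf and Thbs1 against Control, and of Col1a1, Col3a1, Lum and Bgn against Cpt2KO, held in every alternative fit and with any 1 library left out. Positive estimates also outnumbered negative ones against Control in Cpt1DKO (33 of 36), Cpt2KO (26) and TKO (23). In bulk liver, more stellate cells, more RNA per stellate cell and a changed share of RNA from other cells cannot be told apart. In Cpt2PparaDKO against Control the median log2 fold change was 0.875 for macrophage, 0.386 for bile duct and 0.339 for sinusoidal endothelial markers. It was 0.325 for portal fibroblast, 0.272 for smooth muscle and 0.252 for lymphocyte markers. For mesothelial markers it was -0.0322 and for hepatocyte markers -0.955. Called higher were 6 of 16 tested macrophage and 2 of 9 portal fibroblast markers, with 0 lower in either list. Smooth muscle had 1 of 7 higher and 2 lower, bile duct 0 of 8 higher and 1 lower, and hepatocyte 0 of 10 higher and 9 lower. Of 14 sinusoidal endothelial, 7 lymphocyte and 2 mesothelial markers, 0 were called. The background is again 14.9% of all genes higher and 17.6% lower. The part of these cells in the members' median was not tested.

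Fewer of the genes were called in the other knockouts. In Cpt1DKO, 5 rose (13.9%) and 0 fell against Control (median 0.36, against -0.01 over all genes), beside 2.44% of all genes higher and 3.10% lower. There, 14 were higher and 1 lower at an unadjusted p under 0.05, and DESeq2 called 6 higher and 0 lower. In Cpt2KO, 6 rose and 0 fell (median 0.16). That is 16.7% of the genes and near the background of 16.2% higher; 17.2% of all genes were lower. At an unadjusted p under 0.05, 7 were higher and 1 lower there, and DESeq2 called 6 higher and 0 lower. In TKO, 2 rose (5.56%) and 1 fell (2.78%, median 0.05), beside a background of 13.0% higher and 14.4% lower. All 4 comparisons with Control share its libraries.

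Between the fatty acid oxidation knockouts, Cpt2KO livers had 0 of these genes higher and 3 lower than Cpt1DKO, beside 7.41% of all genes higher and 6.71% lower. At an unadjusted p under 0.05, 1 was higher and 5 lower, and DESeq2 called 0 higher and 3 lower. Of TKO against Cpt1DKO edgeR called 0 in either direction, beside a background of 2.60% higher and 2.06% lower. At an unadjusted p under 0.05, 0 were higher and 6 lower in that comparison, and DESeq2 called 0 higher and 2 lower. TKO against Cpt2KO also gave 0 calls, where only 0.0319% of all genes were higher and 0.0191% lower. Unadjusted p under 0.05 held for 2 higher and 2 lower in it, and DESeq2 called 0 in either direction.

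**Figure D2:**
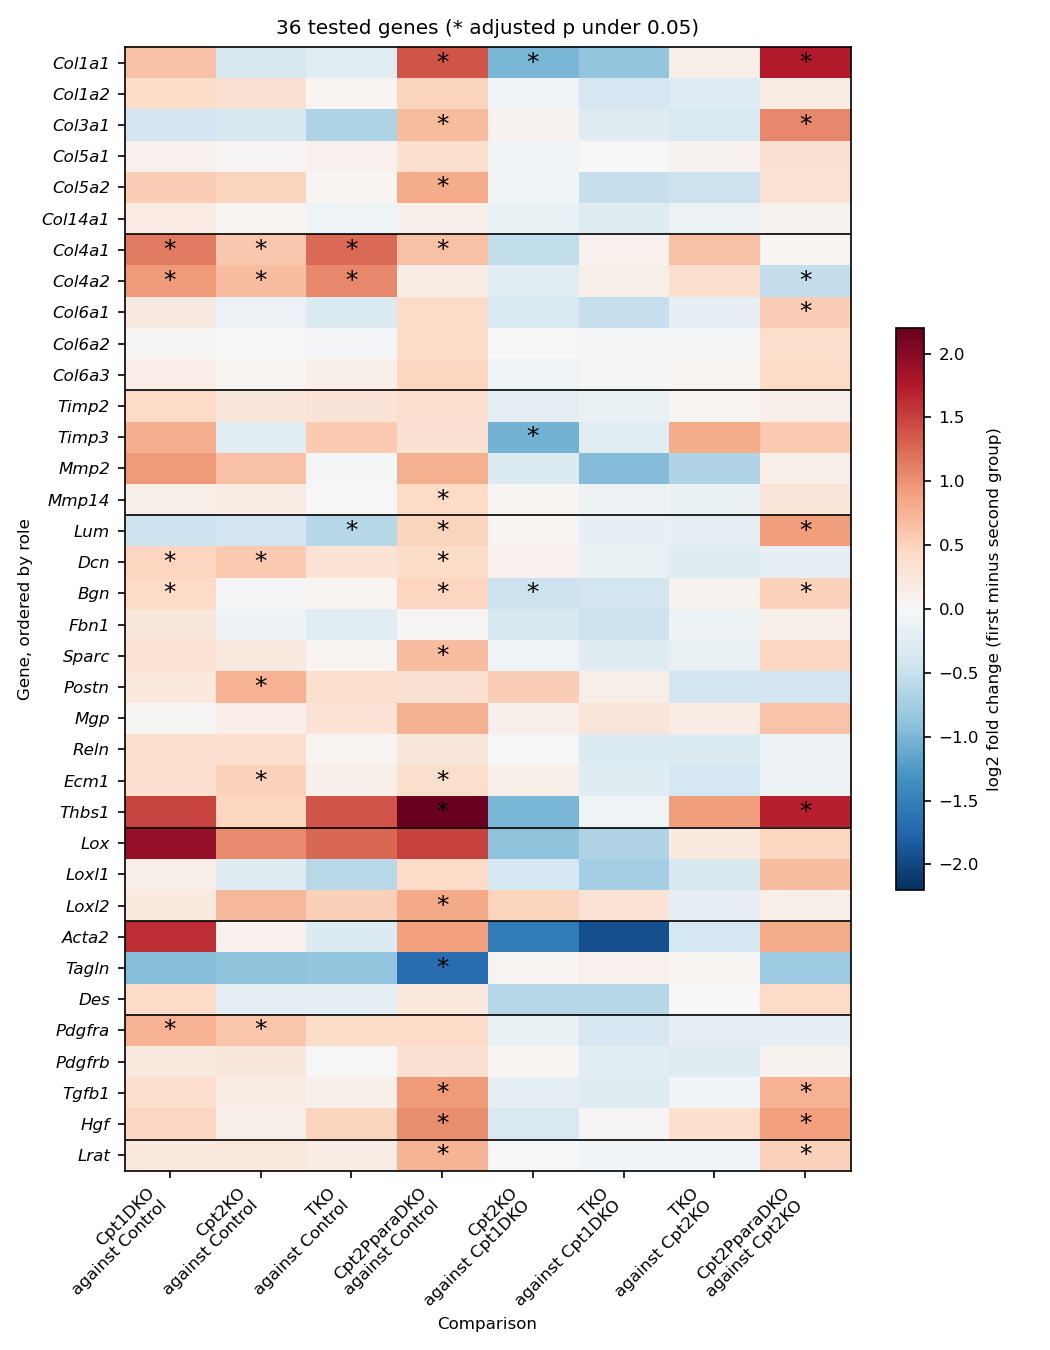
Log2 fold change of each tested gene (rows, grouped by role) in each of the 8 comparisons (columns), from the edgeR fit; marked cells are called at an adjusted p under 0.05. The column of Cpt2PparaDKO against Control has 35 of 36 positive values and the most calls.

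Of the fibril-forming collagens, which make the main tensile fibres, Col1a1, Col3a1 and Col5a2 rose in Cpt2PparaDKO against Control, and Col1a1 and Col3a1 also against Cpt2KO. Col1a1 encodes the alpha 1 chain of type I collagen. It measured 3.15, 3.44, 1.32 and 4.10 CPM in Control and 9.39, 7.31, 8.04 and 6.71 CPM in Cpt2PparaDKO, and the groups did not overlap (log2 fold change 1.38, SE 0.28, adjusted p = 0.000649). Cpt2KO had 2.63, 1.60, 2.28 and 2.94 CPM, below every Cpt2PparaDKO library (log2 fold change 1.74, SE 0.28, adjusted p = 9.79e-05 for Cpt2PparaDKO minus Cpt2KO). Col1a1 in Cpt1DKO was 3.58, 6.28, 4.23 and 4.73 CPM, and the 4 Cpt2KO libraries all lay below those (log2 fold change -0.997, SE 0.28, adjusted p = 0.0227 for Cpt2KO minus Cpt1DKO). The TKO values were 3.33, 2.83, 1.82 and 2.38 CPM and overlapped Control.

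Col3a1, the single chain of type III collagen, measured 12.2, 11.7, 6.66 and 9.54 CPM in Control and 17.9, 14.04, 20.6 and 12.8 CPM in Cpt2PparaDKO, again without overlap (log2 fold change 0.70, SE 0.25, adjusted p = 0.0387). Its Cpt2KO libraries had 12.3, 5.17, 8.58 and 5.65 CPM and lay below all 4 of Cpt2PparaDKO (log2 fold change 1.05, SE 0.26, adjusted p = 0.00486). Col5a2, a chain of the type V collagen found inside type I fibrils, rose from 1.89 ± 0.364 CPM (SD, n = 4) in Control to 3.32 ± 0.824 CPM in Cpt2PparaDKO (log2 fold change 0.81, SE 0.24, adjusted p = 0.0121), while against Cpt2KO the estimate was 0.33 (95% interval -0.15 to 0.81). Col1a2, the partner chain of Col1a1, was not called in any comparison. It went from 8.35 ± 1.49 to 11.7 ± 1.17 CPM between Control and Cpt2PparaDKO (log2 fold change 0.49, 95% interval 0.10 to 0.88, adjusted p = 0.0516), and those libraries did not overlap. Col5a1 (0.35, adjusted p = 0.244) and Col14a1 (0.12, adjusted p = 0.63), a collagen on the surface of fibrils, were not called there either. Col3a1 against Control lost its call without any 1 of Control replicates 3 and 4 and Cpt2PparaDKO replicates 1 and 3 (adjusted p up to 0.112), and Col1a1 of Cpt2KO against Cpt1DKO without any 1 of Cpt1DKO replicates 2 and 4 and Cpt2KO replicate 2 (adjusted p up to 0.09).

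**Figure D3:**
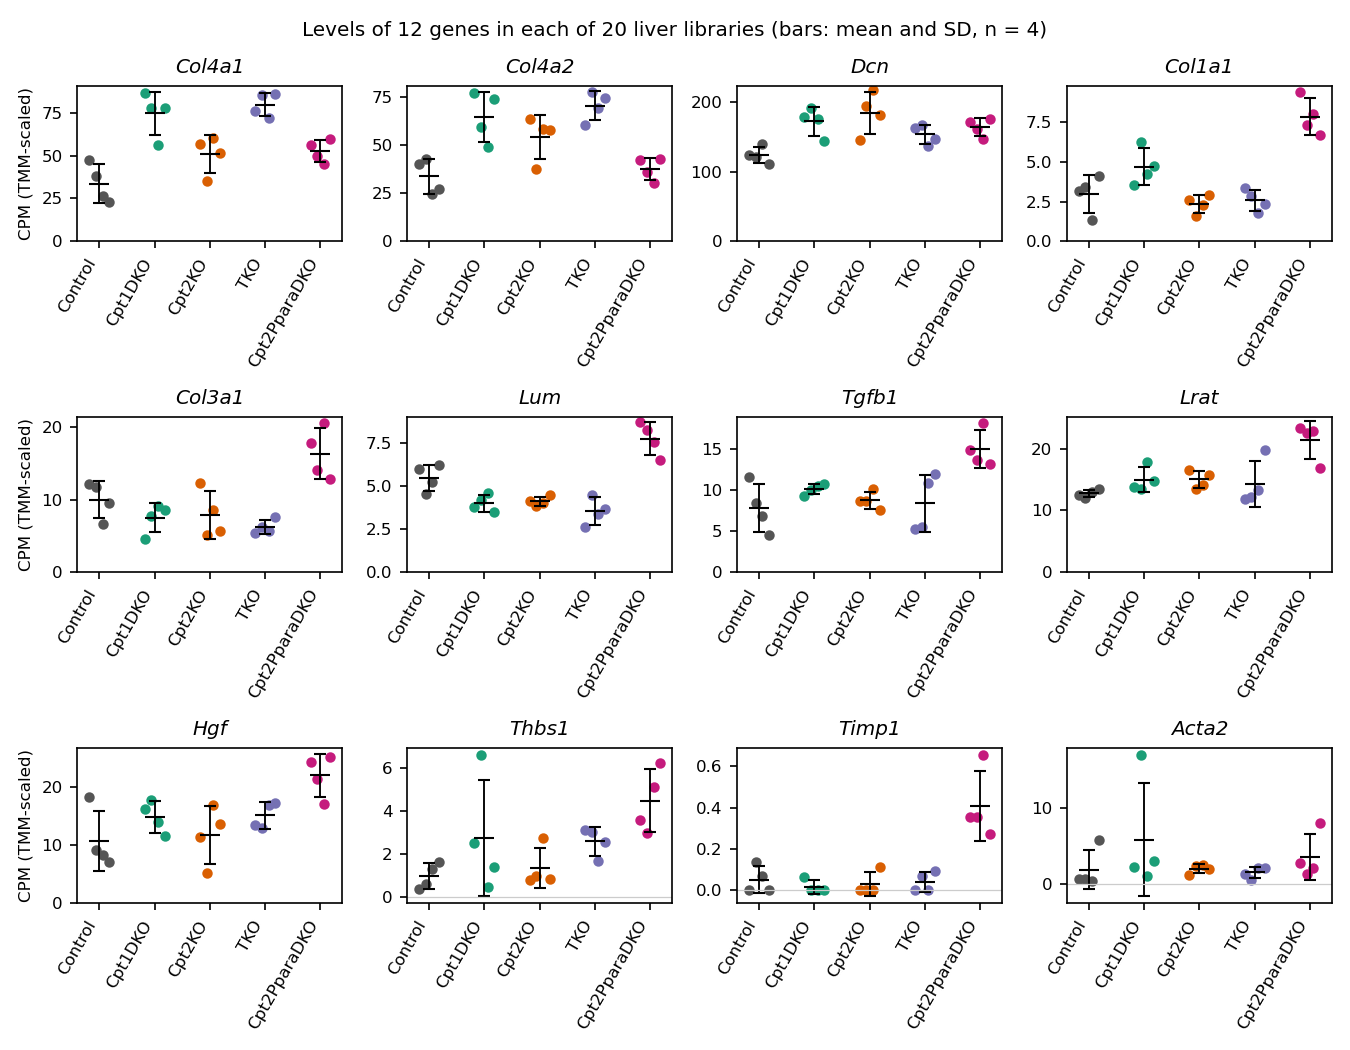
Scaled CPM in each of the 20 libraries for members the results turn on (panels; points are libraries, bars are group means). Col1a1 and Col3a1 are highest in the 4 Cpt2PparaDKO libraries, and Col4a1 and Col4a2 have their highest means in Cpt1DKO and TKO.

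The 2 chains of basement membrane type IV collagen had another order of groups. Col4a1 measured 47.3, 38.1, 26.4 and 23.00 CPM in Control, 86.3, 77.9, 56.4 and 77.4 CPM in Cpt1DKO and 75.9, 85.1, 72.03 and 85.7 CPM in TKO. Both knockout groups lay wholly above Control (log2 fold change 1.14, SE 0.20, adjusted p = 0.00178 in Cpt1DKO, and log2 fold change 1.24, SE 0.20, adjusted p = 9.88e-05 in TKO). Cpt2KO, at 56.8, 35.4, 60.3 and 51.3 CPM, and Cpt2PparaDKO, at 56.1, 49.8, 44.8 and 59.4 CPM, were called higher too but overlapped Control (log2 fold change 0.59, SE 0.20, adjusted p = 0.0227, and log2 fold change 0.64, SE 0.19, adjusted p = 0.0154).

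Col4a2 had 40.1, 42.5, 24.6 and 27.3 CPM in Control, 76.6, 59.1, 48.8 and 73.5 CPM in Cpt1DKO and 60.1, 77.5, 69.2 and 74.1 CPM in TKO, and neither knockout group overlapped Control (log2 fold change 0.94, SE 0.19, adjusted p = 0.00587, and log2 fold change 1.06, SE 0.19, adjusted p = 3e-04). Cpt2KO was at 63.2, 37.6, 58.4 and 57.4 CPM (log2 fold change 0.69, SE 0.19, adjusted p = 0.00757). Cpt2PparaDKO was at 41.9, 35.8, 30.4 and 42.6 CPM, with a log2 fold change of 0.16 against Control (95% interval -0.23 to 0.55) that did not pass. Col4a2 was the single gene called lower in Cpt2PparaDKO than in Cpt2KO (log2 fold change -0.52, SE 0.19, adjusted p = 0.0461), while Col4a1 in that comparison differed by 0.05 (95% interval -0.36 to 0.45). The summed sinusoidal endothelial markers, of a cell type that also makes type IV collagen, ran from 377 to 840.0 CPM in Control, 634 to 823 CPM in Cpt1DKO and 438 to 706 CPM in TKO. Of 14 such markers 2 rose (14.3%) in Cpt1DKO and 0 fell (8 and 0 at an unadjusted p under 0.05, 4 and 0 by DESeq2), beside 2.44% of all genes higher and 3.10% lower. Their part in the Col4a1 and Col4a2 values was not tested. In TKO 0 of 14 were called (0 at an unadjusted p under 0.05 and 0 by DESeq2), beside 13.0% of all genes higher and 14.4% lower. The Cpt1DKO and TKO calls of both chains held in every alternative fit. Col4a1 lost its call in Cpt2KO without any 1 of Control replicates 3 and 4 and Cpt2KO replicates 1 and 3 (adjusted p up to 0.072), without both female-pattern libraries (adjusted p = 0.061) and with only the 2 groups in the fit (adjusted p = 0.068). In Cpt2PparaDKO it did so without Control replicate 4 (adjusted p = 0.053). The Col4a2 difference between Cpt2PparaDKO and Cpt2KO was lost without any 1 of Cpt2KO replicates 1, 3 and 4 and Cpt2PparaDKO replicates 1, 2 and 3 (adjusted p up to 0.141) and with unscaled totals (adjusted p = 0.355).

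The start sites of Col4a1 and Col4a2 face away from each other on opposite strands and overlap by 22 bases, shown because 1 stretch of DNA begins both transcripts. It lies at chr8:11312805-11312826 of GRCm38.p6 (RefSeq) and is given from the plus strand, on which Col4a2 is read; the counts themselves were made on GRCm39.
Col4a1 and Col4a2 shared start: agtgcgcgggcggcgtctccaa

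Of the 3 beaded collagen VI chains, 1 was called, in 1 comparison. Col6a1 rose in Cpt2PparaDKO against Cpt2KO, from 6.04 ± 1.35 to 8.81 ± 1.58 CPM (log2 fold change 0.54, SE 0.19, adjusted p = 0.0411), a call lost without any 1 of Cpt2KO replicates 1, 2 and 4 and Cpt2PparaDKO replicates 2, 3 and 4 (adjusted p up to 0.145). Against Control it was 0.41 (adjusted p = 0.102). Col6a2 and Col6a3 were called nowhere, with log2 fold changes of 0.40 and 0.47 in Cpt2PparaDKO against Control.

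Among the proteoglycans, lumican (Lum), which sets fibril spacing, moved in opposite directions in different knockouts. It measured 5.97, 4.52, 5.27 and 6.20 CPM in Control, 2.61, 4.52, 3.41 and 3.71 CPM in TKO and 8.70, 8.25, 7.57 and 6.52 CPM in Cpt2PparaDKO. The TKO libraries lay below the Control libraries (log2 fold change -0.63, SE 0.18, adjusted p = 0.0118), though the nearest pair both round to 4.52 CPM, and the Cpt2PparaDKO libraries lay above them (log2 fold change 0.50, SE 0.17, adjusted p = 0.0317). Cpt2KO, at 4.12, 3.84, 4.02 and 4.50 CPM, was also below all Control libraries but not called (-0.42, adjusted p = 0.0767). Cpt2PparaDKO exceeded Cpt2KO without overlap (log2 fold change 0.92, SE 0.17, adjusted p = 0.000599). The fall in TKO was lost without any 1 of Control replicate 4 and TKO replicate 1 (adjusted p up to 0.0526) and with unscaled totals (adjusted p = 0.0904). The rise in Cpt2PparaDKO against Control was lost without any 1 of Control replicates 2 and 3 and Cpt2PparaDKO replicates 1 and 2 (adjusted p up to 0.0909).

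Decorin was called higher in Cpt1DKO, Cpt2KO and Cpt2PparaDKO. It had 124, 121, 139 and 112 CPM in Control, 179, 192, 176 and 144 CPM in Cpt1DKO (log2 fold change 0.48, SE 0.13, adjusted p = 0.0297), 146, 195, 218 and 181 CPM in Cpt2KO (log2 fold change 0.58, SE 0.13, adjusted p = 0.00135) and 172, 161, 147 and 175 CPM in Cpt2PparaDKO (log2 fold change 0.40, SE 0.13, adjusted p = 0.0188). In TKO it had 163, 168, 136 and 147 CPM (0.31, adjusted p = 0.0754). Biglycan had 76.6, 55.6, 60.5 and 53.5 CPM in Control, 92.6, 89.4, 77.8 and 74.05 CPM in Cpt1DKO (log2 fold change 0.44, SE 0.13, adjusted p = 0.0445) and 91.6, 85.6, 71.4 and 92.8 CPM in Cpt2PparaDKO (log2 fold change 0.47, SE 0.13, adjusted p = 0.00683). Its Cpt2KO libraries, at 56.01, 58.8, 70.2 and 55.6 CPM, lay below both Cpt1DKO (log2 fold change -0.47, SE 0.13, adjusted p = 0.0164) and Cpt2PparaDKO (log2 fold change 0.50, SE 0.13, adjusted p = 0.00563 for the latter minus Cpt2KO). In Cpt1DKO the decorin call was lost without any 1 of Control replicates 1, 2 and 4 and Cpt1DKO replicates 1 and 2 (adjusted p up to 0.113) and the biglycan call without any 1 of Control replicates 2, 3 and 4 and Cpt1DKO replicates 1 and 2 (adjusted p up to 0.157). Decorin in Cpt2PparaDKO lost it without Control replicate 4 (adjusted p = 0.0539), and biglycan of Cpt2KO against Cpt1DKO without any 1 of Cpt1DKO replicate 1 and Cpt2KO replicate 4 (adjusted p up to 0.0602) and with unscaled totals (adjusted p = 0.0898).

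The matrix glycoproteins Thbs1, Sparc and Ecm1 rose in Cpt2PparaDKO. Thbs1 (thrombospondin 1, which can activate latent transforming growth factor beta) had the largest change of the 36 in that comparison, from 0.387, 0.608, 1.32 and 1.64 CPM in Control to 3.60, 2.99, 5.14 and 6.25 CPM, without overlap (log2 fold change 2.18, SE 0.59, adjusted p = 0.00827). Its Cpt2KO libraries had 0.810, 1.01, 2.77 and 0.865 CPM and also lay below those of Cpt2PparaDKO (log2 fold change 1.70, SE 0.57, adjusted p = 0.0341). In Cpt1DKO, at 2.52, 6.60, 0.479 and 1.41 CPM, Thbs1 was not called (1.49, adjusted p = 0.158). TKO, at 3.15, 3.03, 1.68 and 2.56 CPM, exceeded every Control library and was not called either (1.39, adjusted p = 0.094). Thbs1 against Cpt2KO lost its call without any 1 of Cpt2KO replicates 1, 2 and 4 and Cpt2PparaDKO replicates 3 and 4 (adjusted p up to 0.0972).

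Sparc went from 37.9 ± 11.6 CPM in Control to 60.6 ± 4.61 CPM in Cpt2PparaDKO (log2 fold change 0.68, SE 0.18, adjusted p = 0.00572) and differed by 0.46 from Cpt2KO (adjusted p = 0.0613). Ecm1 had 111 ± 12.9 CPM in Control and rose in Cpt2KO, to 159 ± 29.4 CPM (log2 fold change 0.51, SE 0.14, adjusted p = 0.008), and in Cpt2PparaDKO, to 146 ± 26.6 CPM (log2 fold change 0.39, SE 0.14, adjusted p = 0.0399). Postn (periostin, a matricellular protein) was called in 1 comparison, higher in Cpt2KO than in Control, from 9.07, 7.36, 9.85 and 6.85 to 11.5, 8.15, 23.5 and 13.03 CPM (log2 fold change 0.76, SE 0.26, adjusted p = 0.0253). Cpt2KO replicate 3, a library of female pattern, was by far the highest of that group. Without it the Postn log2 fold change was 0.42 (adjusted p = 0.163), and the call was lost without any 1 of Control replicates 2 and 4 and Cpt2KO replicate 3 (adjusted p up to 0.163). The Ecm1 call in Cpt2PparaDKO was lost without any 1 of Control replicates 1, 2 and 4 and Cpt2PparaDKO replicate 4 (adjusted p up to 0.129) and without both female-pattern libraries (adjusted p = 0.0936). Fbn1, the fibrillin of elastic microfibrils, Mgp, an inhibitor of calcification, and Reln, a secreted stellate marker, were called nowhere. Their log2 fold changes in Cpt2PparaDKO against Control were 0.02, 0.78 and 0.25.

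Of the lysyl oxidases, Loxl2 rose in Cpt2PparaDKO, from 2.60, 1.89, 1.46 and 1.17 to 3.15, 4.01, 3.13 and 2.52 CPM (log2 fold change 0.84, SE 0.32, adjusted p = 0.0486). That call was lost without any 1 of Control replicates 2, 3 and 4 and Cpt2PparaDKO replicates 1, 2 and 3 (adjusted p up to 0.137). Lox and Loxl1 were called nowhere, and Lox, with a mean of 0.262 CPM in Control, had a wide interval (0.07 to 2.95 for its log2 fold change in Cpt2PparaDKO against Control).

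Among proteases and inhibitors, Mmp14, which activates Mmp2 at the cell surface, rose in Cpt2PparaDKO from 47.2, 44.4, 51.7 and 47.9 to 54.5, 55.1, 58.1 and 90.5 CPM (log2 fold change 0.43, SE 0.16, adjusted p = 0.042). Replicate 4, of female pattern, was the highest, and without it the log2 fold change was 0.25 (adjusted p = 0.19). The Mmp14 call was lost without any 1 of Control replicates 1, 2 and 4 and Cpt2PparaDKO replicate 4 (adjusted p up to 0.19) and with only the 2 groups in the fit (adjusted p = 0.0557). Timp3, a matrix-bound inhibitor, was lower in Cpt2KO than in Cpt1DKO (13.9, 7.94, 18.8 and 12.1 against 35.7, 29.9, 19.00 and 23.9 CPM, without overlap, log2 fold change -1.04, SE 0.27, adjusted p = 0.0159). That call was lost without any 1 of Cpt1DKO replicate 1 and Cpt2KO replicate 2 (adjusted p up to 0.0617). Mmp2 and Timp2 were not called in any comparison.

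Timp1, a soluble inhibitor and a common transcript marker of liver fibrosis, had too few reads for the main fit. Its reads summed over 4 libraries were 44 in Cpt2PparaDKO, 3 each in Control and TKO, 2 in Cpt2KO and 1 in Cpt1DKO. The Cpt2PparaDKO libraries held 15, 8, 14 and 7 of them, or 0.353, 0.357, 0.655 and 0.272 CPM, above every other library, of which none held over 2 reads. The ratio of Cpt2PparaDKO to Control, as pooled reads over pooled scaled library sizes, was 8.43 (95% interval 2.70 to 42.4), and to Cpt2KO 13.6 (95% interval 3.55 to 116). These intervals cover counting error only. When genes with low counts were kept, edgeR gave adjusted p = 0.0397 and 0.0213 for those comparisons, and DESeq2 0.0495 and 0.0316. Timp1 lies inside Syn1 on the opposite strand, a gene with a mean of 10.8 reads, and the sources used here do not say whether the counting used strand.

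Of the 3 cytoskeletal markers of contractile cells, Acta2 and Des were called in no comparison and Tagln in 1. Acta2 had 0.663, 0.675, 0.347 and 5.79 CPM in Control, 2.25, 17.1, 1.04 and 3.04 CPM in Cpt1DKO and 2.68, 1.34, 2.15 and 8.03 CPM in Cpt2PparaDKO. Single libraries, Control replicate 4 at 5.79 CPM and Cpt1DKO replicate 2 at 17.1 CPM, stood far above the rest of their groups. The Acta2 difference in Cpt2PparaDKO against Control was 0.91 with a 95% interval of -0.95 to 2.76, which covers both a fall and a several-fold rise. Desmin (Des), an intermediate filament of stellate cells, differed by 0.23 (95% interval -0.23 to 0.69). Tagln, an actin-binding protein of smooth muscle, fell from 0.940, 0.743, 0.555 and 1.11 to 0.353, 0.134, 0.374 and 0.155 CPM (log2 fold change -1.68, SE 0.54, adjusted p = 0.02). It was lost without any 1 of Control replicate 4 and Cpt2PparaDKO replicates 2 and 4 (adjusted p up to 0.0665), without both female-pattern libraries (adjusted p = 0.0638) and with unscaled totals (adjusted p = 0.0578). Tagln shares 108 bases with Pcsk7 on the other strand, which had a mean of 673 reads against 8.85 for Tagln. It also shares 3627 bases with the opposite-strand lncRNA Gm48529, at a mean of 22.15 reads, so reads of these genes may not be separable. The summed smooth muscle markers were 152 to 216 CPM in Control and 57.1 to 134 CPM in Cpt2PparaDKO. Of 7 tested, 1 was higher (14.3%) and 2 lower (28.6%), beside 14.9% of all genes higher and 17.6% lower. Their median log2 fold change was 0.272, so most of the tested markers did not share the fall of the sum. Their part in the Tagln value was not tested.

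The growth factors rose in Cpt2PparaDKO. Tgfb1, the main fibrogenic cytokine, had 11.6, 8.44, 6.80 and 4.56 CPM in Control, 8.71, 8.63, 10.1 and 7.61 CPM in Cpt2KO and 14.9, 13.7, 18.2 and 13.1 CPM in Cpt2PparaDKO. The last group lay above both others (log2 fold change 0.93, SE 0.25, adjusted p = 0.00732 against Control, and log2 fold change 0.77, SE 0.25, adjusted p = 0.028 against Cpt2KO). Hgf, the hepatocyte growth factor made by stellate cells, had 18.3, 9.25, 8.39 and 7.08 CPM in Control, 11.3, 5.17, 16.9 and 13.7 CPM in Cpt2KO and 24.4, 21.4, 17.1 and 25.2 CPM in Cpt2PparaDKO. Control replicate 1 overlapped the Cpt2PparaDKO range, and the other 3 Control libraries lay below it (log2 fold change 1.03, SE 0.30, adjusted p = 0.012, and log2 fold change 0.90, SE 0.29, adjusted p = 0.0309 against Cpt2KO). Against Cpt2KO, Tgfb1 lost its call without any 1 of Cpt2KO replicates 1, 2 and 4 and Cpt2PparaDKO replicates 1 and 3 (adjusted p up to 0.0854), and Hgf without any 1 of Cpt2KO replicates 1 and 2 and Cpt2PparaDKO replicates 1, 2 and 4 (adjusted p up to 0.0838).

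Of the receptors for platelet-derived growth factor, Pdgfra rose in Cpt1DKO (15.7, 15.4, 11.6 and 13.6 CPM against 8.51, 8.84, 7.56 and 8.19 CPM in Control, log2 fold change 0.77, SE 0.20, adjusted p = 0.0276) and in Cpt2KO (9.65, 9.96, 17.2 and 13.9 CPM, log2 fold change 0.62, SE 0.20, adjusted p = 0.0215). In Cpt2PparaDKO its estimate was 0.42 (95% interval 0.01 to 0.84, adjusted p = 0.11). Pdgfrb, the stellate cell receptor, was called nowhere (0.34 in Cpt2PparaDKO, 95% interval 0.02 to 0.66). Pdgfra lost its call in Cpt1DKO without any 1 of Control replicates 1, 2, 3 and 4 and Cpt1DKO replicates 1 and 2 (adjusted p up to 0.0967) and in Cpt2KO without any 1 of Cpt2KO replicates 3 and 4 (adjusted p up to 0.089).

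Lrat, which makes the retinyl esters stored by quiescent stellate cells, rose in Cpt2PparaDKO. It had 12.5, 12.1, 12.97 and 13.5 CPM in Control, 16.6, 13.5, 14.1 and 15.8 CPM in Cpt2KO and 23.4, 22.5, 22.8 and 16.8 CPM in Cpt2PparaDKO. Each Cpt2PparaDKO library lay above each Control and Cpt2KO library (log2 fold change 0.74, SE 0.15, adjusted p = 0.000896 against Control, and log2 fold change 0.51, SE 0.15, adjusted p = 0.0176 against Cpt2KO), and replicate 4, of female pattern, was the lowest of them. Against Cpt2KO the call was lost without any 1 of Cpt2KO replicate 2 and Cpt2PparaDKO replicate 1 (adjusted p up to 0.0567). Of the 22 further markers of quiescent stellate cells listed, 21 were tested. In Cpt2PparaDKO against Control 9 rose (42.9%) and 1 fell (4.76%), beside 14.9% of all genes higher and 17.6% lower. Their summed level was 253 to 319 CPM in Control, 237 to 322 CPM in Cpt2KO and 329.8 to 378 CPM in Cpt2PparaDKO. Among them the neurotrophin receptor Ngfr rose (1.45 ± 0.521 to 4.42 ± 1.40 CPM, log2 fold change 1.59, adjusted p = 0.00669) and Adamtsl2 fell (8.12 ± 1.49 to 5.33 ± 0.514 CPM, log2 fold change -0.60, adjusted p = 0.00642) in Cpt2PparaDKO against Control. Of the 21 tested, 3 rose (14.3%) and 1 fell (4.76%) in Cpt1DKO against Control, beside 2.44% of all genes higher and 3.10% lower. In Cpt2KO 4 rose (19%) and 1 fell (4.76%), beside 16.2% and 17.2%. In TKO 2 rose (9.52%) and 1 fell (4.76%), beside 13.0% and 14.4%. Against Cpt2KO, Cpt2PparaDKO had 7 higher (33.3%) and 2 lower (9.52%), beside 12.1% and 12.2%.

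**Figure D4:**
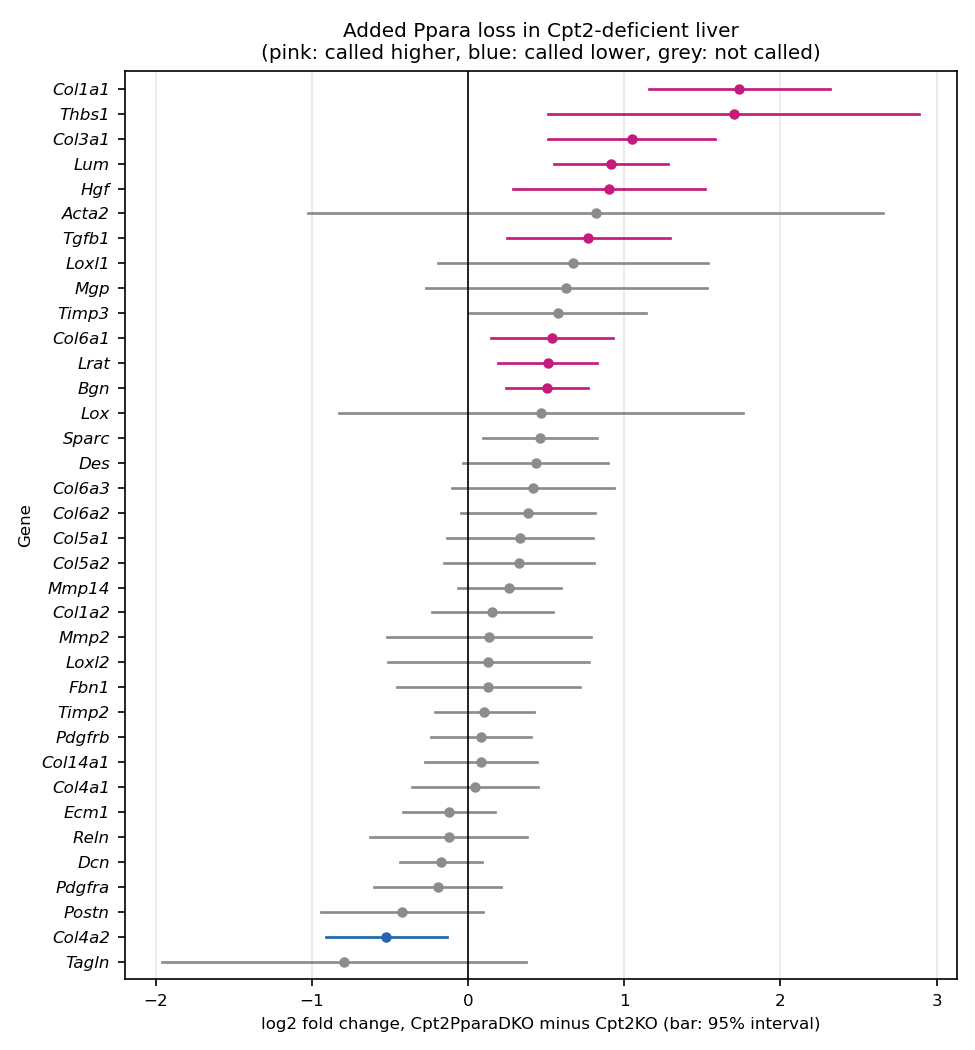
Log2 fold change of each tested gene in Cpt2PparaDKO minus Cpt2KO (horizontal axis; points are edgeR estimates, bars 95% intervals; colours give the call). Col1a1 has the largest called value at 1.74, and Col4a2 is the single call below 0.

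The 8 genes called higher in Cpt2PparaDKO against both Control and Cpt2KO were Col1a1, Col3a1, Lum, Bgn, Tgfb1, Lrat, Hgf and Thbs1. RefSeq promoters (GRCm38.p6) were matched for 24 of the 37 genes, 27 promoters in all. Below are the 250 bases before the start site for 3 of the 8, from different roles, and for Timp1, most of whose reads were in that group. Capitals mark matches on either strand to the SMAD element core CAGAC, the AP-1 site TGANTCA, the SP1 box GGGCGG and the TATA box TATAAA. Col3a1 is at chr1:45311288-45311537 (plus strand), Tgfb1 at chr7:25686752-25687001 (plus), Lrat at chr3:82903975-82904224 (minus) and Timp1 at chrX:20869916-20870165 (plus).
Col3a1: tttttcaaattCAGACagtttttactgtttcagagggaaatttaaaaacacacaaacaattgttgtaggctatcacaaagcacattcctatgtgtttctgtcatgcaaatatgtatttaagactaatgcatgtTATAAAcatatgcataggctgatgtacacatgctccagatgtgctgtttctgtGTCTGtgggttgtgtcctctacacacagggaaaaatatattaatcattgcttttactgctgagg
Tgfb1: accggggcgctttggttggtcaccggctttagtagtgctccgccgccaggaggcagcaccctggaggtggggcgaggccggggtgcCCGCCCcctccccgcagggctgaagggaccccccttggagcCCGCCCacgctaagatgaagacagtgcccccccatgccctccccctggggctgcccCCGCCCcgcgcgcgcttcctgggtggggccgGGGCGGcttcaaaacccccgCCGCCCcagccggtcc
Lrat: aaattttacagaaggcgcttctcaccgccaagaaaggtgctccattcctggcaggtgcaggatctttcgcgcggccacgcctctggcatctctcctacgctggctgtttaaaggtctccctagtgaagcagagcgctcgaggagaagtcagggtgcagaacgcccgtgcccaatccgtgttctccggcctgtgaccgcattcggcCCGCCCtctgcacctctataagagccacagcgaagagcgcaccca
Timp1: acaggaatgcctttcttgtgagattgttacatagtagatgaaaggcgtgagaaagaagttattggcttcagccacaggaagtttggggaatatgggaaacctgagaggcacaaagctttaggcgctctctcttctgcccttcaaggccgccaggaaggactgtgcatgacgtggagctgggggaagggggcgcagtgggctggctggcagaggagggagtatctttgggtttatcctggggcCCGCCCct

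Col3a1 alone of these 4 held the SMAD core and TATA letters, while Tgfb1 held the SP1 box 5 times. Over the 27 promoters, 13 held the SMAD core (48.1%, against 42.2% of 32851 promoters of the same length), 16 the SP1 box (59.3% against 32.7%), 3 the TATA box (11.1% against 12.4%) and 2 the AP-1 site (7.41% against 6.75%). No motif contains another, though neighbouring matches can share letters. A match describes letters and not a bound site.

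Other matrix and signalling genes, listed separately from the 37, moved in both directions. Their counts in Cpt2PparaDKO against Control stand beside 14.9% of all genes higher and 17.6% lower. Against Control, the share of all genes was 16.2% higher and 17.2% lower in Cpt2KO and 13.0% and 14.4% in TKO. It was 2.44% and 3.10% in Cpt1DKO. Of 31 tested genes of transforming and platelet-derived growth factor signalling, 8 rose (25.8%) and 0 fell in Cpt2PparaDKO against Control (9 and 0 at an unadjusted p under 0.05, 8 and 0 by DESeq2). Pdgfa, a ligand of Pdgfra, had the largest rise (6.84 ± 1.85 to 18.9 ± 3.62 CPM, log2 fold change 1.47, adjusted p = 0.000145). In Cpt2KO 7 rose (22.6%) and 1 fell (3.23%). The gene that fell was Smad3, which carries the signal of transforming growth factor beta to the nucleus (17.96 ± 0.341 to 10.4 ± 1.63 CPM, log2 fold change -0.78, adjusted p = 0.000977). TKO had 6 higher (19.4%) and 1 lower (3.23%). In Cpt1DKO 3 rose (9.68%) and 0 fell (11 and 2 at an unadjusted p under 0.05, 5 and 0 by DESeq2). The largest rise there was of Ccn2 (connective tissue growth factor, 11.1 ± 4.38 to 41.7 ± 19.6 CPM, log2 fold change 1.92, adjusted p = 0.0303).

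Of 19 genes of collagen processing, 5 rose (26.3%) and 3 fell (15.8%) in Cpt2PparaDKO. Loxl4, another lysyl oxidase, rose (1.05 ± 0.570 to 5.20 ± 1.32 CPM, log2 fold change 2.28, adjusted p = 0.000202), and Bmp1, the protease that trims procollagen ends, fell (232 ± 34.2 to 102 ± 24.4 CPM, log2 fold change -1.19, adjusted p = 2.1e-05). In Cpt2KO 4 rose (21.1%) and 2 fell (10.5%), beside 16.2% of all genes higher and 17.2% lower. In TKO 3 rose (15.8%) and 2 fell (10.5%), beside 13.0% and 14.4%. The prolyl hydroxylase subunit P4ha2 had the largest rise in Cpt2KO (5.34 ± 2.21 to 14.97 ± 3.56 CPM, log2 fold change 1.49, adjusted p = 0.00273). Of 11 other collagens tested, Col12a1, a collagen on fibril surfaces, rose in Cpt2KO (1.75 ± 0.353 to 7.11 ± 0.504 CPM, log2 fold change 2.02, adjusted p = 4.58e-05), TKO (1.75 ± 0.353 to 7.69 ± 3.66 CPM, log2 fold change 2.13, adjusted p = 4.19e-05) and Cpt2PparaDKO (1.75 ± 0.353 to 5.09 ± 1.76 CPM, log2 fold change 1.54, adjusted p = 0.000704). Cpt2PparaDKO had 1 of the 11 higher and 2 lower (9.09% and 18.2%, near the background). Col27a1 fell in all 4 knockouts, from 22.8 ± 6.93 CPM in Control, with log2 fold changes of -1.93 in Cpt1DKO (adjusted p = 0.000533), -2.25 in Cpt2KO (adjusted p = 6.08e-06), -2.27 in TKO (adjusted p = 1.08e-05) and -2.18 in Cpt2PparaDKO (adjusted p = 1.04e-05).

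Of 16 further matrix proteases and inhibitors tested, 6 rose (37.5%) and 2 fell (12.5%) in Cpt2PparaDKO against Control. Against Cpt2KO, 10 rose (62.5%) and 0 fell (10 and 1 at an unadjusted p under 0.05, 10 and 0 by DESeq2), beside 12.1% of all genes higher and 12.2% lower. In Cpt2PparaDKO against Control, Mmp12, the macrophage elastase, had the largest rise of the called genes in this list (0.316 ± 0.201 to 23.7 ± 4.56 CPM, log2 fold change 6.22, adjusted p = 6.69e-09). The membrane protease Mmp15 fell in all 4 knockouts, from 42.5 ± 4.79 CPM in Control, with log2 fold changes of -1.22 in Cpt1DKO (adjusted p = 0.0162), -2.2 in Cpt2KO (adjusted p = 1.44e-05), -2.13 in TKO (adjusted p = 3.14e-05) and -1.003 in Cpt2PparaDKO (adjusted p = 0.00926). In Cpt2KO 1 rose (6.25%), Adamts1 (12.9 ± 2.23 to 73.7 ± 16.6 CPM, log2 fold change 2.51, adjusted p = 3.81e-05), and 6 fell (37.5%). The background there was 16.2% higher and 17.2% lower. Of 28 other matrix glycoproteins tested, 5 rose (17.9%, near the background) and 2 fell (7.14%) in Cpt2PparaDKO. The basement membrane linker Nid1 rose (13.8 ± 5.19 to 70.8 ± 47.00 CPM, log2 fold change 2.35, adjusted p = 0.000162), and fibronectin (Fn1), of which hepatocytes are a main source, fell (1835 ± 242 to 779.8 ± 75.3 CPM, log2 fold change -1.24, adjusted p = 4.13e-05).

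Markers of other liver cells moved in the same libraries. Summed macrophage markers were 277 to 544 CPM in Control, 319 to 654 CPM in Cpt2KO and 589 to 683 CPM in Cpt2PparaDKO. Of 16 such markers 6 rose (37.5%) and 0 fell in Cpt2PparaDKO against Control (7 and 0 at an unadjusted p under 0.05, 6 and 0 by DESeq2). The background there was 14.9% higher and 17.6% lower. Summed hepatocyte markers were 97665 to 120033 CPM in Control and 43070.4 to 48719 CPM in Cpt2PparaDKO, with 9 of 10 lower. The summed portal fibroblast markers, another source of fibrillar collagen, were 47.01 to 71.98 CPM in Control, 101 to 132 CPM in Cpt2KO and 101 to 138 CPM in Cpt2PparaDKO. Most of that sum was Gas6 (37.2 ± 11.9 CPM in Control to 90.4 ± 15.4 CPM in Cpt2PparaDKO, log2 fold change 1.28, adjusted p = 0.00013). In Cpt2KO Gas6 had 99.8 ± 14.5 CPM (log2 fold change 1.42, adjusted p = 3.57e-05). Only 9 of the 15 portal fibroblast markers had enough reads to be tested. Their median log2 fold change against Control was -0.169 in Cpt2KO and 0.325 in Cpt2PparaDKO. In each, 2 were called higher (22.2%) and 0 lower. The background was 16.2% higher and 17.2% lower in Cpt2KO, and 14.9% and 17.6% in Cpt2PparaDKO. Ccl11 was at 0 in all Cpt1DKO and Cpt2KO libraries, but 0 of these markers were called lower than Control in either group. The summed mesothelial markers were 2.05 to 5.15 CPM in Control and 2.68 to 3.93 CPM in Cpt2PparaDKO, and the lymphocyte markers 2.40 to 7.02 and 4.23 to 8.42 CPM. The part of these cell types in the collagen, Tgfb1 and Timp1 values was not tested.

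**Figure D5:**
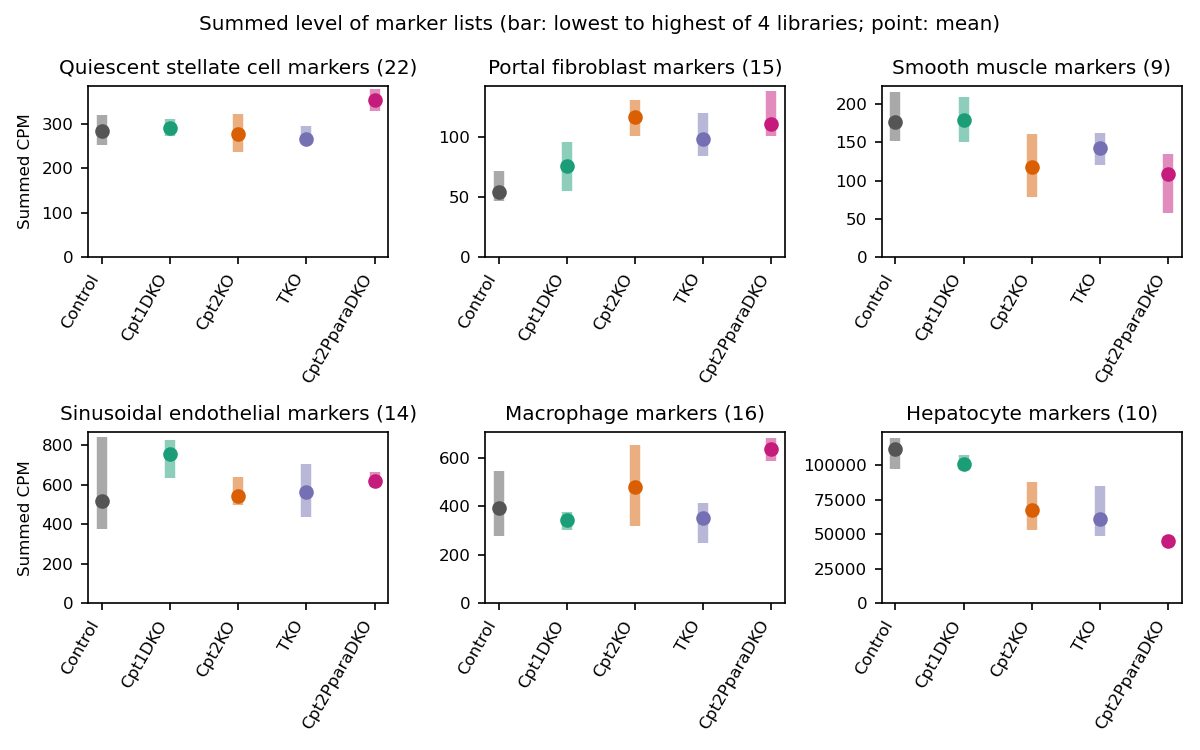
Summed CPM of listed markers in each of the 5 groups (points are means of 4 libraries, bars run from the lowest to the highest library). Panels show quiescent stellate, portal fibroblast, smooth muscle, sinusoidal endothelial, macrophage and hepatocyte markers. The quiescent stellate sum is 330 to 378 CPM in Cpt2PparaDKO and 253 to 319 CPM in Control, and the hepatocyte sum is lowest in Cpt2PparaDKO.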

How the data were processed

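RNA from livers of fasted mice was sequenced as 20 libraries, 4 in each of 5 groups. The authors deposited raw read counts per gene and FPKM; reads were aligned with HISAT2 to GRCm39 (mm39), per the submitters' processing notes. Which HISAT2 version, annotation and counter were used, and whether counting used strand: not given in the sources used here. No column was left unmapped.

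From the deposited counts, edgeR 4.0.16 (R 4.3.3) was run on all 56748 genes with filterByExpr (minimum count 10), TMM scaling, 1 robust quasi-likelihood fit over the 5 groups and Benjamini-Hochberg adjustment over 15669 genes. The biological coefficient of variation was 0.233. FPKM served only to compare levels between genes. On simulated counts for Cpt2KO against Control (15407 genes tested), 49% of 98 genes changed by log2 1 and 88.9% of 99 changed by log2 2 were called, and 5 of 15210 unchanged genes were. Few genes were changed there, while the real comparison called 16.2% of all genes higher and 17.2% lower. The adjusted p depends on that share, so the simulated rates do not carry over to the real comparison.

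Alternatives were DESeq2 1.42.0 (its size factors and its Wald test), unscaled totals, no filter, a 2-group fit, each library left out, the libraries of female pattern left out or sex pattern as a term, and a replicate block. All 37 genes could be named. From every other list, the called genes with the largest rise or fall against Control were named, if their mean reached 1 CPM. A gene that this rule would name is not reported here. Cpt1b was added to the check of deleted genes, and Col27a1 and Mmp15 are given for all knockouts, after the data were seen. The members and lists were chosen with earlier results of these data known. Promoters came from RefSeq on GRCm38.p6, a different build from that of the counts, and were matched by symbol.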

Additional observations from a re-analysis of the deposited data

Results flagged for a closer look

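In 11 of 185 sets of 4 libraries (37 genes in 5 groups), 1 library stood apart by Dixon's test at its 95% critical value; chance flags about 1 in 20 such sets. Acta2 was high in Control replicate 4 (5.79 CPM) and in Cpt1DKO replicate 2 (17.1 CPM), and Des was high in the same Cpt1DKO library (7.85 CPM). Cpt2KO replicate 3, of female pattern, was high for Pdgfrb (9.50 CPM) and Thbs1 (2.77 CPM). Cpt2PparaDKO replicate 4, also of female pattern, was high for Mmp14 (90.5 CPM) and low for Lrat (16.8 CPM). In Cpt1DKO, replicate 1 was low for Col1a2 (8.67 CPM) and replicate 3 was high for Tagln (0.718 CPM). Timp1 was above 0 in a single library of Cpt1DKO, replicate 1 (0.0662 CPM, 1 read), and of Cpt2KO, replicate 4 (0.115 CPM, 2 reads).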

How the results depend on the processing

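With unscaled totals, the median of all genes shifted by up to 0.48 (log2, Cpt2PparaDKO against Control), and more of the genes were called higher: 12 in Cpt2KO, 8 in TKO and 32 in Cpt2PparaDKO against Control, and 16 in Cpt2PparaDKO against Cpt2KO. None was then called lower in TKO or Cpt2PparaDKO against Control or in Cpt2PparaDKO against Cpt2KO (0 each). Relative to that shift the genes' median in Cpt2PparaDKO against Control was 0.453, and 0.45 in the main scaling. With only the 2 groups in the fit, TKO against Control gave 5 higher and 2 lower, and the calls lower in Cpt2PparaDKO against Control and against Cpt2KO went to 0. With no filter, the calls lower in TKO against Control and in Cpt2PparaDKO against Cpt2KO went to 0. Without the libraries of female pattern, 0 were lower in Cpt2PparaDKO against Control and against Cpt2KO, and 1 was lower in TKO against Cpt1DKO. That comparison also gave 1 lower with sex pattern as a term and 2 by DESeq2. Single calls lost beyond those given with the results were, with no filter, Bgn in Cpt1DKO (adjusted p = 0.0692), Lum in TKO (0.0689) and Cpt2PparaDKO (0.0669) against Control, Timp3 in Cpt2KO against Cpt1DKO (0.0524), and Col4a2 (0.0823), Col6a1 (0.0667), Hgf (0.0851) and Thbs1 (0.0953) in Cpt2PparaDKO against Cpt2KO. With 2 groups fitted they were Postn in Cpt2KO (0.051), and Col4a2 (0.0754), Col6a1 (0.101) and Hgf (0.0656) in Cpt2PparaDKO against Cpt2KO. With sex pattern as a term they were Col4a1 (0.051) and Postn (0.0942) in Cpt2KO, and Ecm1 (0.0993) and Mmp14 (0.0783) in Cpt2PparaDKO, all against Control. Without the libraries of female pattern they were Postn in Cpt2KO (0.169) and Mmp14 in Cpt2PparaDKO (0.0707) against Control and Col4a2 in Cpt2PparaDKO against Cpt2KO (0.0805). The causes were not tested.

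With 1 library left out, the calls higher ranged from 2 to 8 in Cpt1DKO against Control (2 without any 1 of Control replicates 2 and 4 and Cpt1DKO replicates 1 and 2, 3 without Control replicate 3, 8 without Cpt1DKO replicate 3), 3 to 7 in Cpt2KO (3 without Cpt2KO replicate 3), 2 to 4 in TKO (4 without Control replicate 1), 11 to 15 in Cpt2PparaDKO, and 4 to 12 in Cpt2PparaDKO against Cpt2KO (5 without Cpt2KO replicate 1, 4 without Cpt2KO replicate 2). Calls lower ranged from 0 to 2 in TKO against Control (2 without Control replicate 3, 0 without TKO replicate 1), 0 to 1 in Cpt2PparaDKO against Control (0 without Control replicate 4 or Cpt2PparaDKO replicate 2 or 4), 0 to 1 in Cpt2PparaDKO against Cpt2KO (1 only when Cpt2KO replicate 2 or Cpt2PparaDKO replicate 4 was left out), and 1 to 4 in Cpt2KO against Cpt1DKO (1 without Cpt1DKO replicate 1 or Cpt2KO replicate 2). Of 43 calls, 19 held in every such fit.

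The titles carry replicate numbers, which share only a number: the median correlation of same-numbered deviations was 0.0111 (-0.201 to 0.233), and in 10 of 40 comparisons of a library with another group its own number correlated best. With a replicate block, the calls higher against Control were 12 in Cpt2PparaDKO, 4 in Cpt1DKO, 6 in Cpt2KO and 2 in TKO, and 8 in Cpt2PparaDKO against Cpt2KO. The block lost Bgn in Cpt1DKO (adjusted p = 0.0616), Col3a1 (0.0613), Loxl2 (0.0612) and Lum (0.0506) in Cpt2PparaDKO against Control, and Thbs1 against Cpt2KO (0.0535). Low counts limit Lox, Timp1 and Tagln.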

Other observations

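Across the 20 libraries, deviations of scaled log2 CPM from the group mean were compared between the 36 tested genes, as a description; the libraries' depth and the fraction of each cell type are shared by all genes of a library. Col4a1 and Col4a2, whose transcripts start at the same place, varied together most (r = 0.894). Col14a1 and Reln (0.833), Tgfb1 and Sparc (0.812) and Timp3 and Hgf (0.811) followed, beside a median of 0.128 over 630 pairs. The most negative pair was Col5a1 and Lox (-0.718). Lrat and Lox (-0.546), Col14a1 and Acta2 (-0.528), Col5a1 and Pdgfra (-0.523) and Lrat and Pdgfra (-0.517) followed. Lox had only 0 to 33 reads a library.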
